A study of Mus musculus with 29 samples.

Results

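The genes of cholesterol synthesis, sterol sensing, lysosomal release and export were followed in the mouse hypothalamus at 9 ages. The set was chosen by gene symbol and held 28 of the 24499 symbols in the count files: 18 enzymes of synthesis and 10 genes of sensing, transfer and export. Every member was counted at each age and passed the filter on low counts, together with 16916 genes in all. No cell surface uptake receptor is among the members, so receptors are described with the other sterol genes.

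Brain cells make nearly all of their cholesterol themselves, because lipoproteins of the blood do not cross the blood-brain barrier. Acetyl-CoA is built into mevalonate and farnesyl pyrophosphate, then squalene and lanosterol, and a further series of enzymes turns lanosterol into cholesterol. When sterols are low in the endoplasmic reticulum, SCAP escorts SREBP-2 to the Golgi, where it is cleaved and then turns on the genes of the pathway, whereas INSIG proteins hold the complex back when sterols are high. Oligodendrocytes place large amounts of cholesterol in myelin, and neurons dispose of it as 24-hydroxycholesterol.

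All mice were wild type (WT), of the C57BL/6 strain and labelled male. Per the labels they lived alone with lights on for 12 h a day, and the hypothalamus was taken near the middle of the light phase (ZT6) and kept in RNAlater. The ages were postnatal day 5 (P5), 3, 4 and 5 weeks, and 2, 6, 12, 18 and 24 months, with 4 libraries at 4 and at 5 weeks, 2 usable libraries at 24 months and 3 at each other age. The labels name the replicates as separate samples, taken here as separate mice, so a p-value reflects how far these 28 libraries differ among themselves. A library held 24661631 to 39783779 gene counts. Levels are given as CPM, the counts of a gene relative to the size of its library after TMM scaling, and a gene was called when its p-value, adjusted over all genes tested, was below 0.05.

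Several libraries stood apart from their labels or their group. P5 replicates 1 and 2 held 746 and 791 CPM of Xist and 0 CPM of the Y-linked Ddx3y, against the male label, whereas P5 replicate 3 held 0.223 and 55.1 CPM. The markers of hypothalamic neurons, 10 genes such as Avp and Oxt, were all detected in every library, and they summed to 46.7 to 186 CPM at 2 months against 170 to 1491 CPM at the other ages. The titles at P5 and from 2 months on begin with 1 prefix and those of 3 to 5 weeks with another. The labels do not say what these 2 kinds of title stand for, so in comparisons across them the age and the kind of title cannot be told apart.

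The promoters of 22 members were found in the RefSeq table for GRCm38.p6, as 28 entries of 300 bases (250 before to 50 after a start). For 6 members the 150 bases before the start are shown 5′ to 3′ on the strand of the gene. Hmgcs1, Mvd, Idi1 and Cyp51 are shown as enzymes that fell together after 5 weeks, and Ebp as an enzyme that rose after P5. Abca1 is shown as an exporter that went the opposite way to the enzymes after 5 weeks. Abcg1, also called higher at that step, had no promoter entry. Capitals mark the motifs searched on both strands, which do not overlap in these windows: TCACNCCAC (the core of the sterol regulatory element that SREBP binds), CCAAT (bound by NF-Y) and GGGCGG (the GC box bound by SP1).
Hmgcs1 (chr13:119690201-119690350, plus strand): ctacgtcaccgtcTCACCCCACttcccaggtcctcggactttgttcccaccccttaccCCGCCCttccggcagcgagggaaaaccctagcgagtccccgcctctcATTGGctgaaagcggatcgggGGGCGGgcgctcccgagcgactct
Mvd (chr8:122443423-122443572, minus strand): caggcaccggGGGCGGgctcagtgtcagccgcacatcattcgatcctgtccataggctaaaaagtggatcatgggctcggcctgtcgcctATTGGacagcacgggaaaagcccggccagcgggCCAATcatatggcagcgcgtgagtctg
Idi1 (chr13:8885456-8885605, plus strand): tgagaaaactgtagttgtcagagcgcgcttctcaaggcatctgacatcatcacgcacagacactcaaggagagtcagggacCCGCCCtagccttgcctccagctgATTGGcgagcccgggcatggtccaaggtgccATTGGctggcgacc
Cyp51 (chr5:4104698-4104847, minus strand): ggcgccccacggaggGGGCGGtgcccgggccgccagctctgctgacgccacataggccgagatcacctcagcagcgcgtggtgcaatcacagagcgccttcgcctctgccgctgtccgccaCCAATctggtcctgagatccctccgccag
Ebp (chrX:8193513-8193662, minus strand): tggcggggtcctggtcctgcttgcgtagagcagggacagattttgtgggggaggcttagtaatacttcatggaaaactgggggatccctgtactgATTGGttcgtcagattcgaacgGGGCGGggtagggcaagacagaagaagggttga
Abca1 (chr4:53159896-53160045, minus strand): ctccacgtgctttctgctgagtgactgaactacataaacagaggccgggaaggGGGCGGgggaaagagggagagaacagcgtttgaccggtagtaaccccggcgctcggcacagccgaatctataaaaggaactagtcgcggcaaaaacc

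The sterol regulatory element core was found in 1 of the 28 member promoters, that of Hmgcs1, where it began 137 bases before the start, against 1.24% of 32851 promoters of the same length. CCAAT was in 14 of the 18 promoters of enzymes (77.8%) and 67.9% of all member promoters, against 37.4% of all promoters. The GC box was in 83.3% of the promoters of enzymes and 85.7% of those of members, against 35.7%. The DR4 repeat bound by liver X receptors (AGGTCA repeated with 4 bases between) was in 0 member promoters and 0.0152% of all promoters. A match says only that these letters lie in the window, and so does the lack of one.

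As a group, the enzymes of synthesis were most abundant at P5 and lowest from 6 to 18 months. The geometric mean of the 18 enzymes, as a percentage of its P5 level, was 78.0 ± 4.30% at 3 weeks (SD, n = 3), 76.5 ± 7.17% at 4 weeks (n = 4) and 71.2 ± 1.44% at 5 weeks (n = 4). It was 67.4 ± 4.63% at 2 months and 57.1 ± 5.14% at 6 months (n = 3 each). At 12 and 18 months it stood at 58.9 ± 2.28% and 57.7 ± 1.36% (n = 3 each), and at 24 months at 64.6 ± 1.77% (n = 2). The P5 libraries lay between 98.3 and 101.2%, and no later library reached 83%. The lowest library was 6-month replicate 32 at 51.4%, and 4-week replicate 4, at 65.8%, lay below the 79.4 to 81.2% of the other 4-week libraries. These are tissue averages, in which fewer cells of a type and less RNA per cell cannot be told apart.

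**Figure D1:**
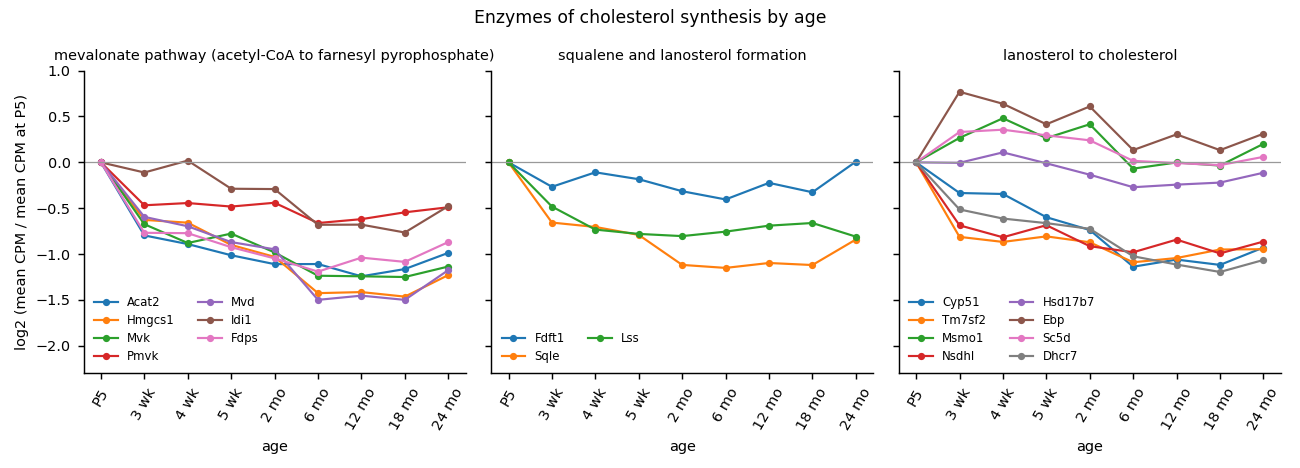
Mean CPM of each of the 18 synthesis enzymes at the 9 ages, as the log2 ratio to its mean at P5 (vertical axis), in 3 panels by step of the pathway; ages are evenly spaced and not to scale. The mevalonate enzymes lie below 0 at every later age apart from Idi1 at 4 weeks, whereas Msmo1, Ebp and Sc5d rise above 0 at 3 weeks and return to near 0 at 6 months.

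Over the 9 ages, 26 of the 28 members differed, against 76.8% of all genes tested, and the 2 that were not called were Hsd17b7, an enzyme of the late pathway, and Stard4, a cytosolic sterol carrier. Between P5 and 3 weeks 10 members rose and 14 fell. Over all genes 29.8% rose and 29.3% fell at that step, so that a call by itself was common. The enzymes leaned down: 13 of 18 fell and 3 rose, with a median log2 fold change of -0.50 against -0.01 over all genes. Between 5 weeks and 6 months 2 members rose and 15 fell, where 4.58% of all genes rose and 8.39% fell. Of the enzymes 13 fell and none rose there, with a median of -0.29 against 0.01 over all genes. From P5 to 6 months, which is measured within 1 kind of title, 6 members rose and 17 fell, where 30.3% of all genes rose and 30.2% fell. At that span 14 enzymes fell and none rose, with a median of -1.003 against 0.02 over all genes. The comparisons share groups of libraries and are not independent of each other.

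Between 3 and 5 weeks none of the 28 members was called, where 2.15% of all genes were. At an unadjusted p below 0.05 there were 12 members, and 1972 of the 16916 genes tested. DESeq2 called 3 members (1 higher, 2 lower), a count not set against all genes here. With the ages of 18 and 24 months set against 6 and 12 months, no member was called by edgeR or by DESeq2, where 0.0296% of all genes were called by edgeR. At an unadjusted p below 0.05 there were 5 members, and 1107 of the 16916 genes tested. In no member did the 2 sets of libraries separate, and the share of all genes in which they did was not counted. Of the trends over the adult ages, 2 to 24 months, 1 member was called, where 7.43% of all genes were. This was Dhcr7, the reductase that makes cholesterol from 7-dehydrocholesterol, at -0.016 ± 0.0046 log2 per month (SE, adjusted p = 0.0452). Its slope over 6 to 24 months was -0.0046, with an adjusted p of 0.808, where no gene of any kind was called. The call was lost, with adjusted p from 0.0579 to 0.109, without any 1 of the 2-month replicates 11, 12 and 13, 6-month replicate 34, 12-month replicate 27, the 18-month replicates 14, 15 and 16, or 24-month replicate 2.

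The mevalonate enzymes fell together. Of the 7 genes from acetyl-CoA to farnesyl pyrophosphate, 6 fell between P5 and 3 weeks, 5 fell between 5 weeks and 6 months, and 7 were lower at 6 months than at P5. Hmgcs1 (chr13:119690379-119708260, plus strand, GRCm38), which condenses acetyl-CoA with acetoacetyl-CoA, was the most abundant member per length, at 165 ± 7.5 CPM per kb of exon at P5 (SD, n = 3) and 61.4 ± 7.04 at 6 months. Its P5 libraries held 772, 718 and 782 CPM, and those of 3 weeks 492, 436 and 543 CPM. At 4 weeks it held 587, 477, 476 and 381 CPM, and at 5 weeks 373, 437, 400 and 414 CPM. The P5 libraries stood clear of all later ones, while the weeks from 3 to 5 overlapped. At 2 months Hmgcs1 held 415, 340 and 358 CPM, at 6 months 246, 290 and 309 CPM, and at 12 months 268, 311 and 274 CPM. At 18 months the libraries held 248.8, 285 and 290 CPM, and at 24 months 330 and 316 CPM. All 6-month libraries lay below those of 5 weeks, and the 24-month pair lay just above the range of 6 to 18 months. The log2 fold change of Hmgcs1 was -0.63 ± 0.12 at 3 weeks against P5 (SE, adjusted p = 6.25e-05), -0.53 ± 0.11 at 6 months against 5 weeks (adjusted p = 0.00296) and -1.43 ± 0.12 at 6 months against P5 (adjusted p = 1.85e-10).

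Mvd (chr8:122433601-122443422, minus strand), the decarboxylase that makes isopentenyl pyrophosphate, had the largest fall of the members from P5 to 6 months. It held 65.2, 65.3 and 65.5 CPM at P5 and 41.4, 43.9 and 44.6 CPM at 3 weeks. It held 33.8, 36.3, 36.9 and 36.1 CPM at 5 weeks, and 19.5, 23.1 and 26.8 CPM at 6 months. Each of these ages lay wholly below the one before. The 4-week libraries, not in this series, ran from 30.3 to 47.5 CPM and overlapped those of 3 and of 5 weeks. The step from 3 to 5 weeks was not called. At 2 months, 42.3 CPM in replicate 11 stood above the 29.3 and 30.1 CPM of the other libraries. Mvd was 2.83-fold lower at 6 months than at P5 (log2 -1.50 ± 0.13, adjusted p = 4.27e-10). At 24 months its libraries held 28.9 and 29 CPM.

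Mvk, the kinase of mevalonate, went from 65.8 ± 3.37 CPM at P5 to 41.2 ± 2.28 at 3 weeks and from 38.4 ± 2.36 (n = 4) at 5 weeks to 27.9 ± 1.07 at 6 months, and both steps were called. Fdps, which makes farnesyl pyrophosphate, went from 135 ± 3.39 CPM at P5 to 79.0 ± 5.71 at 3 weeks and 58.9 ± 4.49 at 6 months. Acat2, the cytosolic thiolase that makes acetoacetyl-CoA, and Pmvk, the kinase of phosphomevalonate, fell at 3 weeks, with log2 changes of -0.80 ± 0.07 and -0.47 ± 0.09. Their values for 6 months against 5 weeks were -0.10 ± 0.07 and -0.18 ± 0.08, with adjusted p of 0.376 and 0.153.

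Idi1, the isomerase of isopentenyl pyrophosphate, was called at the later step and not at the earlier one. It held 47.0, 42.5 and 46.3 CPM at P5 and 45.3, 36.3 and 44.2 CPM at 3 weeks, and these libraries overlapped (log2 -0.11 ± 0.11, adjusted p = 0.408). At 5 weeks it held 34.9, 40.8, 36.1 and 36.7 CPM and at 6 months 23.9, 29.6 and 31.3 CPM, and the 6-month libraries were all lower (log2 -0.40 ± 0.11, adjusted p = 0.0153). The difference between its earlier and later step was not tested.

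All 3 genes that lead from farnesyl pyrophosphate to lanosterol fell at 3 weeks, and 2 of them, Sqle and Fdft1, fell between 5 weeks and 6 months. Sqle (chr15:59315077-59331192, plus strand), the squalene epoxidase, held 192, 200 and 189 CPM at P5 and 118, 120 and 131 CPM at 3 weeks. Its libraries held 111, 109, 115 and 113 CPM at 5 weeks, 87.9, 88.5 and 91.5 CPM at 2 months, and 74.9, 90.8 and 96.1 CPM at 6 months. The 2-month level of Sqle already lay below every 5-week library (log2 -0.33 ± 0.08, adjusted p = 0.00503). Fdft1, the squalene synthase, had the smallest called fall of the enzymes at 3 weeks, from 136 ± 2.58 to 113 ± 4.52 CPM, and it fell from 119 ± 1.41 CPM (n = 4) at 5 weeks to 102 ± 8.28 at 6 months. Its 24-month libraries held 145 and 128 CPM, around the P5 values of 133, 138 and 136 CPM. Lss, the lanosterol synthase, fell from 70.9 ± 0.787 to 50.8 ± 3.84 CPM at 3 weeks. It held 41.3 ± 1.57 CPM (n = 4) at 5 weeks and 42.0 ± 1.62 at 6 months, a difference of 0.02 ± 0.09 on the log2 scale (adjusted p = 0.887).

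Downstream of lanosterol the enzymes split after P5: of 8 genes, 4 fell and 3 rose at 3 weeks, and 6 fell between 5 weeks and 6 months. The 4 that fell at 3 weeks were Cyp51, Tm7sf2, Nsdhl and Dhcr7. Cyp51 (chr5:4081145-4104746, minus strand), the lanosterol demethylase, held 203, 199 and 207 CPM at P5 and 161, 149 and 173 CPM at 3 weeks. It held 126, 141, 135 and 135 CPM at 5 weeks and 80.0, 97.7 and 99.0 CPM at 6 months. No library of a later age in this series of 4 reached the range of an earlier one. The 4-week libraries, not in this series, ran from 138 to 173 CPM and overlapped those of 3 and of 5 weeks. The step from 3 to 5 weeks was not called. The fall of Cyp51 after 5 weeks (log2 -0.54 ± 0.08, adjusted p = 0.000178) was larger than its fall before 3 weeks (-0.33 ± 0.09, adjusted p = 0.00212), and the difference between the steps was not tested. Dhcr7 (chr7:143823145-143848410, plus strand) went from 88.0 ± 3.6 CPM at P5 to 61.6 ± 2.30 at 3 weeks and from 55.6 ± 3.03 (n = 4) to 43.3 ± 2.00 between 5 weeks and 6 months. Tm7sf2, a sterol reductase, fell from 37.5 ± 0.866 to 21.4 ± 0.979 CPM at 3 weeks, and Nsdhl, a sterol dehydrogenase, from 51.3 ± 1.15 to 31.9 ± 1.58 CPM.

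Msmo1, Ebp and Sc5d rose at 3 weeks. Ebp (chrX:8185329-8193512, minus strand), the sterol isomerase, held 14.5, 12.8 and 13.1 CPM at P5 and 21.5, 24.1 and 23.3 CPM at 3 weeks, a 1.71-fold rise with no overlap (log2 0.77 ± 0.11, adjusted p = 1.19e-06). It held 18.0, 17.9, 16.9 and 18.9 CPM at 5 weeks and 14.9, 14.3 and 15.2 CPM at 6 months, which were all lower but not called (log2 -0.28 ± 0.10, adjusted p = 0.0678). At 2 months its libraries held 24.8, 19.6 and 17.1 CPM, and from there to 6 months Ebp fell within 1 kind of title (log2 -0.48 ± 0.11, adjusted p = 0.0180). Nsdhl and Ebp are X-linked, and their values in P5 replicate 3, 50.7 and 13.1 CPM, lay between those of the P5 libraries that held Xist.

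Msmo1 (chr8:64718139-64733792, minus strand), the methylsterol oxidase, held 98.5, 98.0 and 98.7 CPM at P5 and 120, 107 and 128 CPM at 3 weeks. At 4 weeks it held 147, 135, 146 and 121 CPM, and at 2 months 143, 123 and 128 CPM. It then held 82.0, 98.2 and 101.4 CPM at 6 months, a range that took in the P5 values. Its rise at 3 weeks was 0.27 ± 0.09 on the log2 scale (adjusted p = 0.0146, or 0.0881 without 3-week replicate 3) and its fall from 2 to 6 months -0.48 ± 0.09 (adjusted p = 0.00661). Sc5d, the sterol desaturase, went from 66.3 ± 3.03 CPM at P5 to 83.4 ± 4.62 at 3 weeks, and from 81.3 ± 3.56 (n = 4) at 5 weeks to 67.1 ± 5.70 at 6 months. For 6 months against P5 the 3 genes gave log2 values of -0.07, 0.14 and 0.02, none of them called. Hsd17b7, the ketosteroid reductase, held 34.8 ± 2.55 CPM at P5 and 28.8 ± 7.98 at 6 months, and its 6-month libraries ranged from 21.4 to 37.2 CPM.

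**Figure D2:**
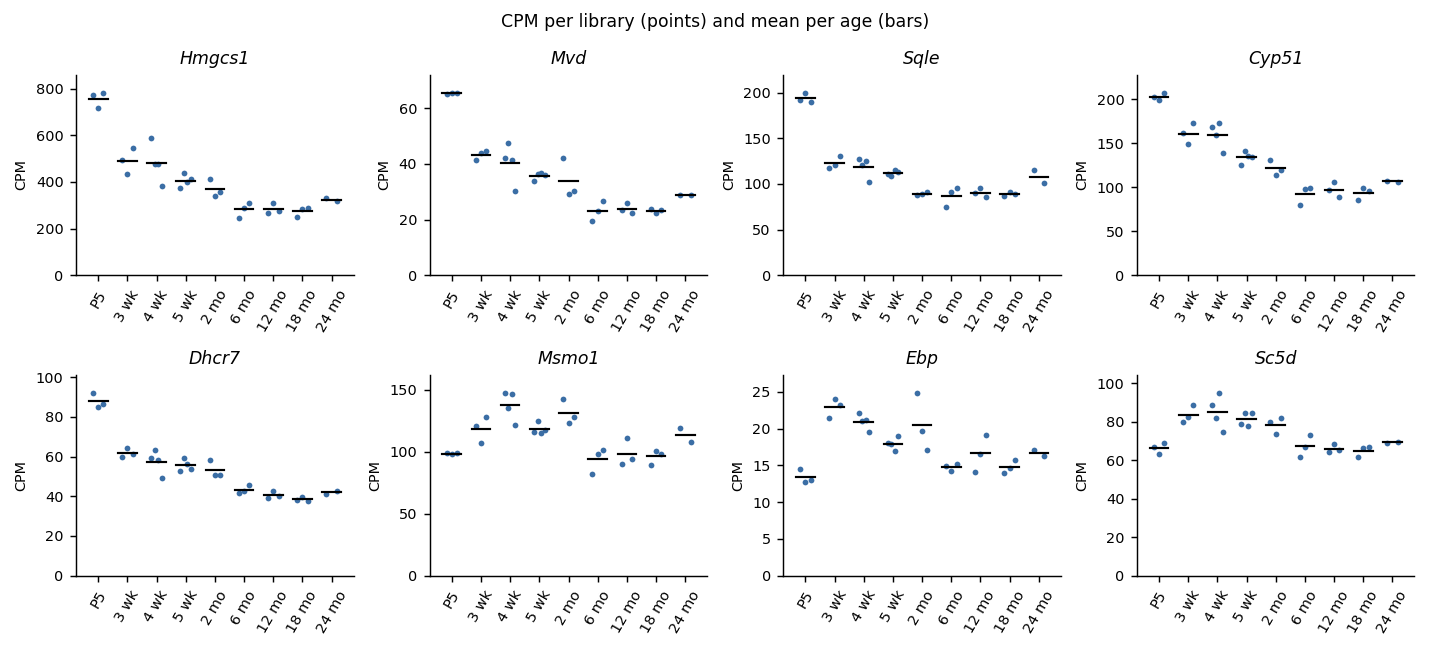
CPM of 8 synthesis enzymes in each library (points) with the mean of each age (bars); ages are evenly spaced. Hmgcs1, Mvd, Sqle, Cyp51 and Dhcr7 are highest at P5, and Ebp, Msmo1 and Sc5d are higher at 3 weeks than at P5.

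By calls at the 2 steps (3 weeks against P5, then 6 months against 5 weeks), 10 enzymes were lower at both and 3 (Acat2, Pmvk and Lss) at the first alone. Msmo1 and Sc5d were higher and then lower, Ebp higher at the first, Idi1 lower at the second, and Hsd17b7 was called at neither. Over all genes 29.3% were lower at the first step and 8.39% at the second. The share of all genes lower at both was not counted. The steps cross the kinds of title in opposite directions. From 2 to 6 months, within 1 kind of title, 5 enzymes fell (Mvd, Cyp51, Msmo1, Ebp and Dhcr7) and 1 member, Abca1, rose, where 3.59% of all genes were called. The 2-month libraries stood apart in markers: those of hypothalamic neurons summed to a mean of 114 CPM there and 432 CPM at 6 months, and those of myelin to 18782 and 11354 CPM. Replicate 11 held the most Mvd and Ebp of the 2-month libraries, and the part of these differences in the result was not tested.

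Part of the calls after 5 weeks rested on 1 library. Without 6-month replicate 32, the lowest in enzyme level, 8 members were called (1 higher, 7 lower) in place of 17. Over all genes the calls went from 2193 to 1349 without it. Without any other single library of these ages 13 to 16 members were called. Idi1, Fdps, Fdft1, Tm7sf2, Msmo1, Nsdhl, Sc5d, Scap and Abcg1 lost the call, with adjusted p from 0.0703 to 0.287. Their log2 changes kept their direction and were 0.628 to 0.895 times as large as with that library, and 2 libraries were left at 6 months. Of these, Fdft1, Tm7sf2, Nsdhl, Scap and Abcg1 also lost it without 1 or more of the 5-week replicates 1 to 4 or the 6-month replicates 33 and 34, with adjusted p from 0.0504 to 0.106. That library also held the most gene counts of the 28 and 930 CPM of Ttr, a choroid plexus gene, against 33.7 and 11 CPM in the other 6-month libraries; the part of this in the result was not tested. With 12 or 18 months in place of 6 months, 15 members were called in each case, where 19.9% and 22.9% of all genes were. With 2 months 4 were called (1 higher, 3 lower), where 16.6% of all genes were, so the members' share there was not above that of all genes. With the P5 replicate that held no Xist alone at P5, its spread was assumed to be that of the other ages. The called log2 changes then had a median of 1.03 times their main size at 3 weeks and 1.01 times at 6 months. The largest shift was 0.109 and 0.111 on the log2 scale. Msmo1, Sc5d and Srebf2 were the members that lost the 3-week call, and Srebf2 and Scap the 6-month call. These 2 also lost the 6-month call without P5 replicate 2 or 6-month replicate 32, and Scap without 6-month replicate 34, with adjusted p from 0.0657 to 0.141.

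Among the 4 genes of sterol sensing both Insig genes rose after P5, and Srebf2 and Scap fell between 5 weeks and 6 months. Insig2 (chr1:121304353-121332589, minus strand), which holds the SCAP complex in the endoplasmic reticulum, held 31.8, 32.4 and 34.3 CPM at P5 and 56.6, 58.2 and 58.6 CPM at 3 weeks. From 3 weeks on its libraries lay between 54.0 and 67.7 CPM, all above P5. It rose 1.76-fold (log2 0.82 ± 0.06, adjusted p = 5.38e-11), and for 6 months against 5 weeks it gave -0.02 ± 0.06 (adjusted p = 0.862). Insig1, a target of SREBP-2 with the same role, rose from 100.2 ± 2.97 CPM at P5 to 131 ± 10.4 at 3 weeks. It held 152 ± 4.04 CPM (n = 4) at 5 weeks and 139 ± 20.7 at 6 months, and its 6-month libraries ranged from 122 to 162 CPM.

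Srebf2 (chr15:82147181-82205379, plus strand), which encodes SREBP-2, held 264, 288 and 255 CPM at P5 and 281, 312 and 304 CPM at 3 weeks. These groups overlapped, and the call at this step was marginal (log2 0.15 ± 0.07, adjusted p = 0.0471): with DESeq2 size factors in edgeR the adjusted p was 0.0507, and without P5 replicate 1 or 3 or 3-week replicate 2 or 3 it was 0.117 to 0.198. At 5 weeks Srebf2 held 312, 291, 315 and 305 CPM, at 2 months 238, 235 and 233 CPM, and at 6 months 218, 243 and 242 CPM. All libraries of 2 and 6 months lay below those of 5 weeks, and the fall was called at 2 months (log2 -0.38 ± 0.06, adjusted p = 0.000327) as well as at 6 months (-0.38 ± 0.06, adjusted p = 0.000289). At 24 months its libraries held 290 and 269 CPM. Scap, the escort protein, went from 123 ± 8.34 CPM (n = 4) at 5 weeks to 103 ± 3.34 at 6 months (log2 -0.26 ± 0.07, adjusted p = 0.0202), while between P5 and 3 weeks it was not called (0.13 ± 0.08, adjusted p = 0.158). Between 2 and 6 months neither gene was called (Scap 0.07 ± 0.08, adjusted p = 0.627; Srebf2 -0.01 ± 0.07, adjusted p = 0.969). Within the same kind of title, at 2 months against P5, both were lower, Srebf2 by -0.19 ± 0.07 on the log2 scale (adjusted p = 0.0141) and Scap by -0.25 ± 0.08 (adjusted p = 0.00656).

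The genes that release cholesterol from lysosomes rose after P5. Npc1, the membrane transporter, held 51.4, 46.2 and 49.8 CPM at P5 and 75.6, 73.8 and 75.2 CPM at 3 weeks. It held 84.4, 87.8, 86.7 and 83.5 CPM at 5 weeks and 99.6, 100.2 and 98.5 CPM at 2 months, and each of these groups lay above the one before. The 4-week libraries, not in this series, ran from 71.9 to 80.7 CPM and overlapped those of 3 weeks. Npc1 rose 1.52-fold at 3 weeks (log2 0.61 ± 0.07, adjusted p = 1.76e-08) and was 1.88-fold higher at 6 months than at P5. Npc2, the soluble partner that hands cholesterol to Npc1, rose from 79.4 ± 2.56 to 120 ± 3.67 CPM at 3 weeks (log2 0.59 ± 0.10, adjusted p = 2.66e-05). Stard4 held 31.3 ± 5.31 CPM at P5, 30.7 ± 1.21 at 3 weeks and 30.9 ± 5.22 at 6 months.

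The genes of export and turnover did not share a course. Abca1 (chr4:53030787-53159895, minus strand), which loads cholesterol onto apolipoproteins, held 94.2, 87.9 and 101.3 CPM at P5 and 52.7, 52.9 and 53.3 CPM at 3 weeks. It held 45.7, 45.6, 48.3 and 48.3 CPM at 5 weeks and 68.9, 64.9 and 65.9 CPM at 6 months. The P5 libraries were the highest, those of 3 and 5 weeks were the lowest of these, and those of 6 months lay between. The fall at 3 weeks was 1.78-fold (log2 -0.83 ± 0.08, adjusted p = 1.60e-09), and the rise from 5 weeks to 6 months was 1.42-fold (log2 0.50 ± 0.07, adjusted p = 7.62e-05). It also rose from 2 to 6 months (log2 0.36 ± 0.08, adjusted p = 0.0140), within 1 kind of title.

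Abcg1 (chr17:31057675-31117988, plus strand), an exporter of the same family, held 35.4, 31.2 and 30.4 CPM at P5 and 59.3, 63.8 and 63.6 CPM at 3 weeks, a 1.93-fold rise (log2 0.94 ± 0.07, adjusted p = 2.16e-11). It held 73.2, 70.3, 76.7 and 68.8 CPM at 5 weeks and 90.3, 75.9 and 81.1 CPM at 6 months. These groups overlapped, and the later rise was marginal (log2 0.19 ± 0.06, adjusted p = 0.0474), with an adjusted p of 0.0732 when no filter on low counts was used. Cyp46a1 (chr12:108334381-108362234, plus strand), the neuronal enzyme that makes 24-hydroxycholesterol, held 61.5, 44.8 and 53.5 CPM at P5 and 145, 123 and 157 CPM at 3 weeks. This 2.67-fold rise (log2 1.41 ± 0.13, adjusted p = 2.62e-09) was the largest of the members at that step. At 5 weeks it held 166, 159, 148 and 138 CPM and at 6 months 127, 142 and 127 CPM (log2 -0.21 ± 0.12, adjusted p = 0.275). The lowest library after P5 was 12-month replicate 28, at 84.9 CPM.

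**Figure D3:**
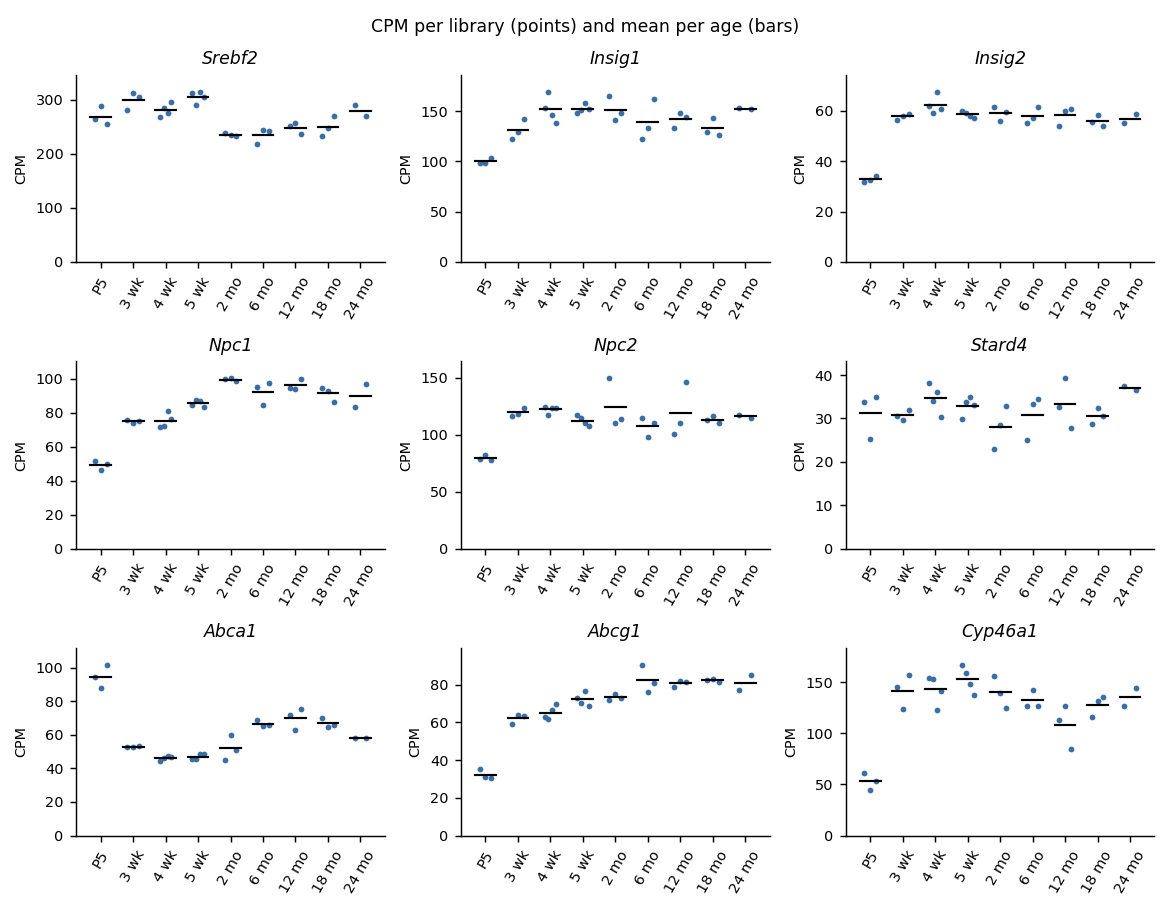
CPM of 9 genes of sensing, lysosomal release, transfer and export in each library (points) with the mean of each age (bars); ages are evenly spaced. Insig2, Npc1, Abcg1 and Cyp46a1 stand higher from 3 weeks on than at P5, whereas Abca1 is highest at P5 and lowest from 3 weeks to 2 months.

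On the scale of mean CPM per kb of exon, the order of the members changed between P5 and 6 months. At P5 Hmgcs1 was followed by Cyp51 (46.0 ± 0.97, SD, n = 3), Acat2 (41.5 ± 0.97) and Pmvk (40.8 ± 1.08), of which the last 2 did not differ beyond their spread. At 6 months Hmgcs1 was followed by Insig1 (44.9 ± 6.69) and Cyp46a1 (40.2 ± 2.73), which overlapped within their spread, and Srebf2 (32.6 ± 2.0). The lowest levels per length were those of Npc1 (4.34 ± 0.24) and Abcg1 (4.43 ± 0.36) at P5 and of Lss (3.90 ± 0.15) and Tm7sf2 (4.01 ± 0.37) at 6 months. The length takes in every annotated exon of a gene, also those of minor transcripts. It was 11317 bases for Npc1, 7298 for Abcg1, 10787 for Lss and 4403 for Tm7sf2. A long total lowers the level per kb, and its part in this order was not tested.

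**Figure D4:**
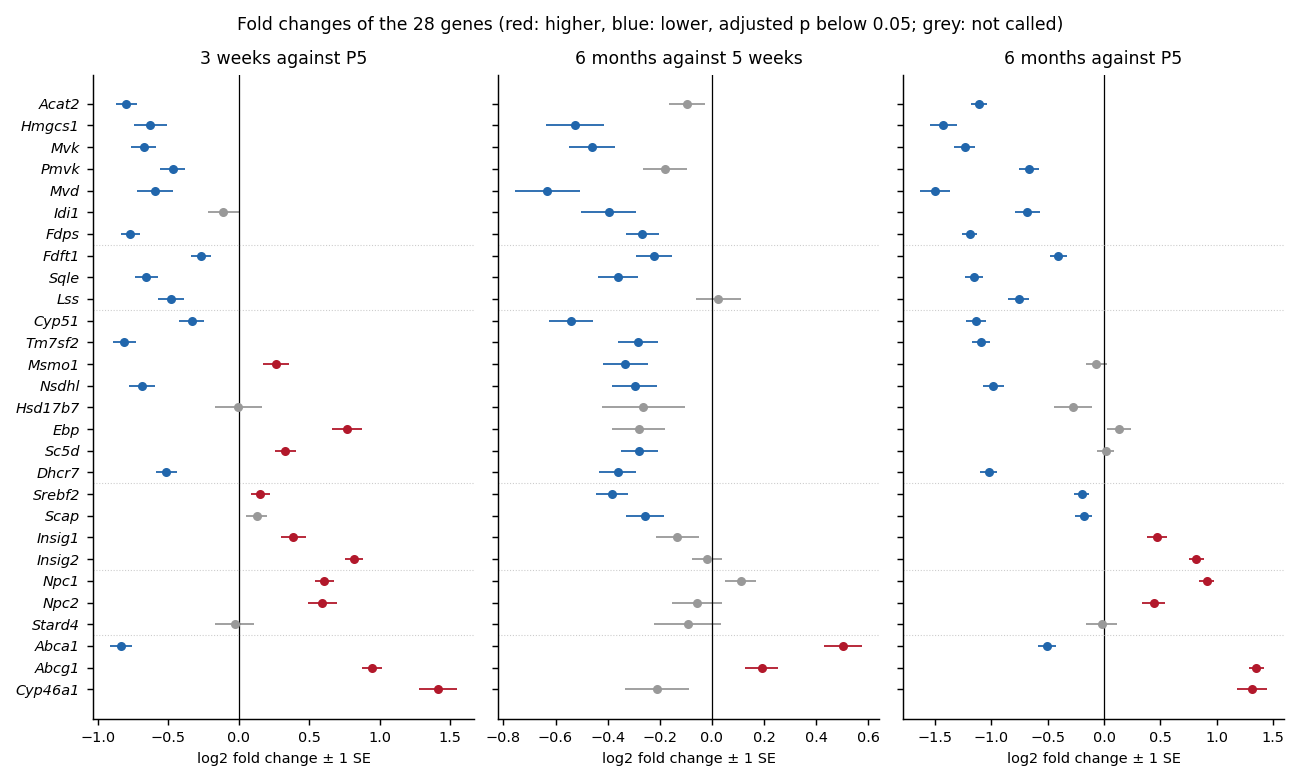
Log2 fold change with 1 SE (horizontal axis) of the 28 genes, in order of role, for 3 weeks against P5, 6 months against 5 weeks and 6 months against P5; red is higher, blue lower and grey not called. The horizontal scales differ between panels, and the blue points of the enzymes reach -1.50 for Mvd in the last panel, while Cyp46a1 reaches 1.41 in the first.

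Of 30 other genes of sterol handling, 29 had a row in the files and were tested. At 3 weeks 8 rose and 9 fell, close to the share over all genes. Cyp27a1, the sterol 27-hydroxylase, went from 0.624 ± 0.33 CPM at P5 to 5.19 ± 0.77 (log2 3.03 ± 0.25, adjusted p = 1.42e-10) and Nr1h3, the liver X receptor alpha, from 1.09 ± 0.14 to 3.09 ± 0.16 CPM. Lrp8, a lipoprotein and reelin receptor, fell from 220 ± 8.9 to 63.9 ± 3.6 CPM, and Mbtps2, a protease that cleaves SREBPs, from 43.7 ± 4.1 to 18.3 ± 2.2 CPM. Between 3 and 5 weeks none was called, with 5 at an unadjusted p below 0.05, where 1972 of all 16916 genes were. Between 5 weeks and 6 months, where 4.58% of all genes rose and 8.39% fell, 3 rose and 1 fell: Cyp27a1 (log2 0.71 ± 0.18), Soat1, which esterifies cholesterol for storage (0.39 ± 0.10), Mbtps2 (0.30 ± 0.09) and, lower, Stard3, an endosomal sterol carrier (-0.30 ± 0.07). From P5 to 6 months 10 rose and 9 fell, again close to the 30.3% and 30.2% of all genes, with the largest changes in Cyp27a1 (4.21 ± 0.24), Nr1h3 (1.83 ± 0.18), Lrp8 (-1.57 ± 0.11) and Scarb1, a lipoprotein receptor (-1.14 ± 0.09). In the late comparison and in the adult trend none was called, with 1 and 6 at an unadjusted p below 0.05. Over all genes, 1107 of 16916 and 4112 of 16633 were below that value.

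Markers of several cell types moved over the same ages, and their part in the results was not tested. The 9 markers of myelin summed to 315 to 441 CPM at P5, 20697 to 25847 CPM at 3 weeks, 14576 to 19262 CPM at 5 weeks and 8912 to 12805 CPM at 6 months. At P5, 8 of the 9 were detected in every library. All 9 rose at 3 weeks, and 7 fell between 5 weeks and 6 months. The geometric mean of the enzymes was highest at the age when the myelin markers were lowest, and both were lower at 6 months than at 5 weeks. Msmo1, Ebp and Sc5d rose at 3 weeks, as did those markers. The 5 markers of newly formed oligodendrocytes summed to a mean of 543 CPM at P5, 693 at 3 weeks, 595 at 5 weeks and 537 at 6 months. For the 3 markers of their precursors the means were 438, 598, 433 and 317 CPM. The markers within these lists did not move together. At 3 weeks against P5, 1 precursor marker was called higher and 2 lower, with a median log2 change of -0.44. Of the newly formed markers, 4 were called higher and 1 lower there, and 2 higher and 3 lower at 6 months against P5. Over all genes 29.8% rose and 29.3% fell at 3 weeks. The 6 markers of immature neurons summed to 4509 to 4713 CPM at P5 and 467 to 470 CPM at 3 weeks, and the 8 of astrocytes to 1392 to 1448 and 3012 to 3230 CPM. The 7 neuron markers summed to 4045 to 4905 CPM at P5 and 5909 to 6384 CPM at 3 weeks. The choroid plexus markers ranged from 9.60 to 4802 CPM over the libraries. No list was at 0 at any age. Rn7s2, a small cytoplasmic RNA, was above 20 CPM in 2 of the 4-week libraries, in the 5-week and in the 24-month libraries and at most 5.74 CPM elsewhere. With the 6 such libraries of 4 and 5 weeks set apart by a term, which only the 4-week libraries can estimate, 8 members were called at 6 months against 5 weeks (1 higher, 7 lower), and the calls over all genes went from 2193 to 426. The 9 members that lost the call kept their direction, with log2 changes 0.807 to 1.68 times as large as without the term and 6 of them larger.

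As a description of shared course, Pearson's r was taken between each enzyme and the mean of the other enzymes over the 28 libraries. It was 0.98 for Hmgcs1 and for Mvd and 0.97 for Cyp51, and 0.38 for Sc5d, 0.37 for Msmo1 and 0.11 for Ebp. Over the 25 libraries of 3 weeks and older it was 0.91 for Sc5d, 0.84 for Msmo1 and 0.78 for Ebp, and 0.24 for Lss. The points share libraries, scaling and the age groups. Outside the set, the gene most like the enzyme mean was Aacs, acetoacetyl-CoA synthetase, with r = 0.95 over 28 and 0.93 over 25 libraries. It held 126 ± 2.88 CPM at P5, 75.1 ± 3.95 at 3 weeks, 59.8 ± 2.27 (n = 4) at 5 weeks and 38.9 ± 3.69 at 6 months. The next over all libraries were Ctnnb1, Cdc42, Dpp3, Cmas, Txn1, Kpna2 and Fxyd7, at 0.92 to 0.94. From 3 weeks on they were Cbx8, Fxyd7, Ctnnb1, Kctd5, Eif2b1, Kpna2 and Serf1, at 0.89 to 0.91.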

How the data were processed

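RNA of the hypothalamus was sequenced as paired-end libraries from WT C57BL/6 mice at 9 ages. Alignment used HISAT2 2.1.0 with mm10 (GRCm38) and counting HTSeq 0.9.1, per the submitters' processing notes. The deposited values are raw counts per gene symbol, 1 file per library. Not given in the sources used here: the annotation, the use of strand, and trimming; overlapping and antisense genes are therefore uncertain. The 5 HTSeq summary lines held 26.1 to 32.5% of each library and were removed. Of 29 deposited files, 1 at 24 months held 2377580 counts in 1385 genes and was left out under a minimum of 5000 genes counted.

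Counts of 28 libraries were filtered (filterByExpr by age, 16916 genes), scaled by TMM and fitted with edgeR 4.0.16 in R 4.3.3 (robust quasi-likelihood, 1 mean per age). A second fit gave the slope per month over the 14 libraries of 2 to 24 months (16633 genes). Tests were two-sided, and p-values were adjusted by the Benjamini-Hochberg method over all genes of a comparison. Log2 CPM used a prior count of 1. The SE goes with each log2 fold change or slope, and the SD over libraries with each CPM. Positions and exon lengths are from GENCODE M21, promoters from RefSeq. The fit was checked on simulated data. Alternatives were DESeq2 1.42.0, its size factors, no filter, other ages, a replicate block, P5 replicate 3 alone, the Rn7s2 split, the partial file included, and leaving out each library; several were added after the data were seen.

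The members and lists were chosen with earlier results of these data known. All members were named. Of the other sterol genes, up to 4 called genes with the largest change per comparison were named, and outside both lists the 8 genes with the highest r to the enzyme mean, at a mean of at least 5 CPM. Some genes of these pathways are not reported here.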

Additional observations from a re-analysis of the deposited data

Results flagged for a closer look

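In 2 of the 56 sets of 4 libraries (28 genes at 4 and at 5 weeks), 1 library stood apart from the other three by more than Dixon's critical value at the 95% level, a rate that chance gives for about 1 in 20 such sets. Lss held 38.97 CPM in 5-week replicate 1, where the others held 41.9 to 42.2 CPM. Npc2 held 117.5 CPM in 4-week replicate 2, where the others held 123 to 124 CPM.

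The partial 24-month file, left out of the main comparisons, held counts for 2 members. Hsd17b7 had 1280 counts, or 538 CPM of the genes counted there (exact 95% binomial interval 509 to 569, counting error only), against 489 and 463 CPM of the same genes in the other 24-month libraries. Insig2 had 2071 counts, or 871 CPM (834 to 909), against 828 and 855.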

How the results depend on the processing

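Of 65 calls of single members, DESeq2 kept all 65 and its size factors in edgeR 64, and 63 remained with no filter on low counts. With the partial 24-month file included, 0 members were called in every comparison and over the 9 ages, against 24, 17, 23 and 26 without it, although the log2 changes of the called members in the first 3 of these moved by at most 0.016. Over all genes the calls in those 3 comparisons went from 9986, 2193 and 10228 to 340, 0 and 524, so the loss was not particular to the members. Leaving out 1 library at a time gave 22 to 25 members at 3 weeks against P5, 0 at 5 weeks against 3 weeks, 8 to 16 at 6 months against 5 weeks, 21 to 23 at 6 months against P5, 0 in the late comparison, 0 to 1 in the adult trend and 26 to 27 over the 9 ages. At 5 weeks against 3 weeks DESeq2 called 3 members, and a fit of P5 to 5 weeks alone called 1. At 6 months against 5 weeks the Rn7s2 split gave 8 members (median size 1.31 times the main value), 2 months in place of 6 months 4 (0.259 times, 16.6% of all genes called), and 6 months against 2 months 6 (0.741 times, 3.59%). The sign changed for Msmo1, 6 months against 5 weeks, with 2 months in place of 6 months (log2 0.15), and for Scap, 6 months against 5 weeks, with 2 months in place of 5 weeks (0.069). The adult trend had 2 members with DESeq2 and 0 over 6 to 24 months. Over ages from 6 months on 0 members differed, and from 3 weeks on 19, counts not set against all genes here. Nor were the DESeq2 counts for 5 weeks against 3 weeks and the trend, or that of the fit of P5 to 5 weeks. None of these counts can be read as above or below the share of all genes. The causes were not tested.

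Replicate numbers at P5, 3 and 5 weeks were looked at for a pairing of libraries. Same-numbered deviations correlated at 0.04 to 0.13 between P5 and 3 weeks and at -0.21 to -0.12 between 3 and 5 weeks. Differently numbered libraries were not compared, so these values cannot tell whether the numbers pair the libraries. With the number as a replicate block, 24 members were called at 3 weeks against P5 and 0 at 5 weeks against 3 weeks. Over all genes, 10243 were called at 3 weeks against P5 with the block and 10415 in the same fit without it. The 0 was not set against all genes here.

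The 24-month age rests on 2 libraries.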
